A study of Mus musculus with 3 samples.

Results

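Iron uptake, storage and export in the proximal jejunum was described through 10 genes taken by symbol from the array annotation: Cybrd1, Slc11a2, Slc40a1, Heph, Hamp, Tfrc, Fth1, Ftl1, Fech and Hmox1. All 10 were found among the 20738 named genes. RNA of whole proximal jejunum from Sox4 knockout mice (Sox4 vilCre KO in the labels, where Cre under villin control acts in the intestinal epithelium) was hybridised against RNA of wild-type whole proximal jejunum on 3 two-colour arrays, with knockout RNA in Cy5 and wild-type RNA in Cy3 each time. Each array carries its own mouse number in the labels, and the arrays are called 1, 2 and 3 here. The series asks how Sox4, a transcription factor, acts on proliferation, differentiation and DNA methylation in this epithelium. The sources used here do not give the age or sex of the mice, the alleles of the wild-type mice or whether wild-type RNA was pooled. Every value below is a log2 ratio of knockout over wild type, so it carries a difference and no level, and genes cannot be ranked by abundance. Errors are SDs over n = 3 arrays and intervals are 95% intervals from limma, the linear model fitted across all genes. They measure the spread between these arrays, and how much of the spread between wild-type mice they hold depends on that pooling.

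Dietary iron is taken up mainly in the upper small intestine. A reductase at the brush border (Cybrd1) turns ferric into ferrous iron, a proton-coupled transporter (Slc11a2) carries it into the enterocyte, ferritin (Fth1 and Ftl1) holds it there, and ferroportin (Slc40a1) with the ferroxidase hephaestin (Heph) passes it to the blood. The liver hormone hepcidin (Hamp) blocks ferroportin, the transferrin receptor (Tfrc) takes iron from transferrin, and ferrochelatase (Fech) and haem oxygenase (Hmox1) put iron into haem and release it. Much of this control acts on mRNA stability, translation and protein turnover, which ratios of mRNA do not show in full.

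Sox4 had ratios of -0.66, 0.18 and -0.46 on arrays 1, 2 and 3 (mean -0.31 ± 0.44, limma adjusted p = 0.332), so on array 2 the mean of its features was not below wild type. Its 3 features disagreed, as their means ran from -0.95 to 0.42. Feature 53932 was below 0 on every array (-1.21, -0.72 and -0.93), while feature 32792 reached 1.23 on array 2, and their place relative to the deleted part is not used here. Directions below therefore rest on the labels. The Y-linked gene Eif2s3y lay between -7.44 and -6.99 on the arrays and the X inactivation RNA Xist between 1.51 and 1.85, so a difference in sex between the mice cannot be told apart from genotype in any gene below. Correlations between arrays over all features ran from 0.438 to 0.514.

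None of the 10 iron genes passed limma's test at an adjusted p of 0.05, where 0.328% of all genes passed. Before adjustment 3 of the 10 (Cybrd1, Hamp and Ftl1) had a p under 0.05, against 26.3% of all genes, so the share was near that of the array as a whole. The same sign on all 3 arrays was seen for 4 of the 10 (Cybrd1 and Hmox1 below 0, Hamp and Ftl1 above), against 50.6% of all genes. The members' median was 0.02, beside -0.03 over all genes. Their means ran from -0.84 for Cybrd1 to 0.66 for Hamp. Array 2 gave the lowest ratio of the 3 arrays in 7 members, whereas 37.9% of all genes were lowest there, and 8 members were below 0 on array 2, as were 53.0% of all genes. In whole tissue a lower ratio can come from fewer cells of a type or from less RNA per cell, which cannot be told apart.

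**Figure D1:**
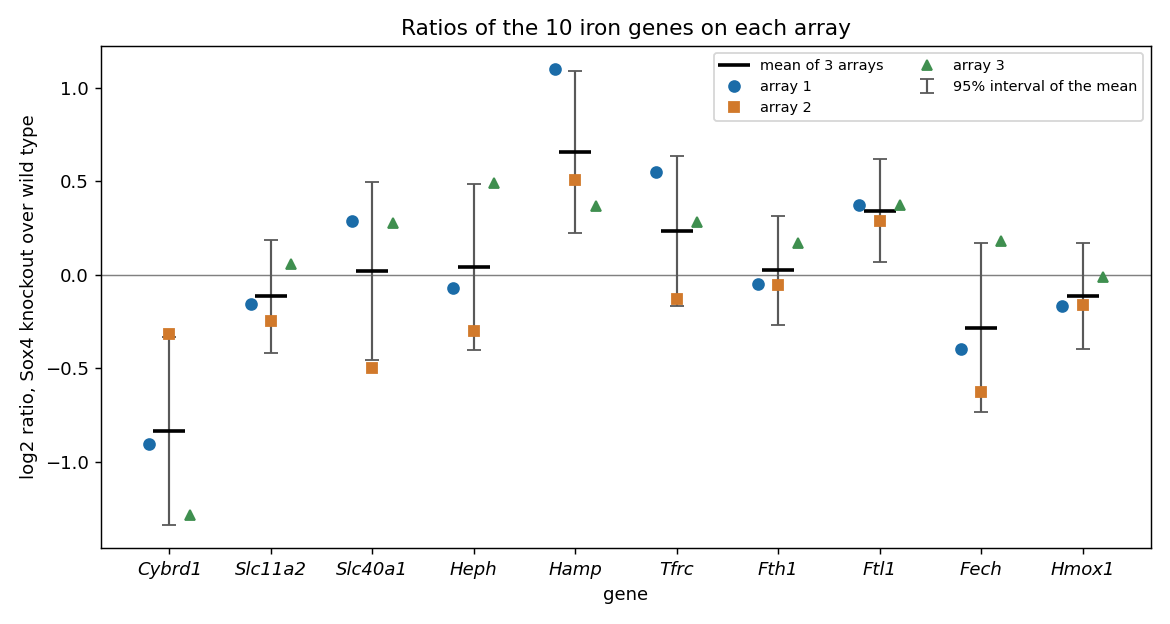
Log2 ratio of knockout over wild type (vertical axis) for the 10 iron genes (horizontal axis), with 1 symbol per array, the mean as a black bar and its 95% interval as a line. Cybrd1 lies below 0 and Hamp and Ftl1 above 0 on every array, and the intervals of the other 7 genes include 0.

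Cybrd1, the duodenal ferric reductase, had the lowest mean of the 10. Its ratios were -0.91, -0.32 and -1.29 on arrays 1, 2 and 3. All were below 0, and array 2 was nearest to it. The mean was -0.84 ± 0.49 (interval -1.34 to -0.33), a 1.79-fold lower mean ratio, and it did not pass (limma adjusted p = 0.0915). Of all genes, 1.84% had a lower mean. Its 2 features gave nearly the same account, with means of -0.89 ± 0.48 and -0.79 ± 0.50. Without array 2 the mean was -1.10 (adjusted p = 0.0895). Of 6 markers checked for proximal gut, 4 had a mean above 0 and 2 below. S100g, the calcium-binding protein of upper intestinal enterocytes and 1 of these markers, had -1.71, -0.52 and -2.12 (adjusted p = 0.0815). Gata4, the transcription factor of proximal gut, lay on the other side, with 0.69, 0.69 and 0.48 (adjusted p = 0.0716). The part of gut position in the Cybrd1 ratio was not tested.

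Slc11a2, the ferrous iron transporter (DMT1), had -0.16, -0.25 and 0.06 on the arrays, with small ratios and mixed signs. The mean was -0.12 ± 0.15 (interval -0.42 to 0.19, adjusted p = 0.568). The difference from Cybrd1 was not tested. Its 2 features averaged -0.14 ± 0.27 and -0.09 ± 0.16.

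On the export side, Slc40a1 (ferroportin) had 0.28 on arrays 1 and 3 and -0.50 on array 2, from 1 feature. Array 2 thus opposed the other arrays. The mean was 0.02 ± 0.45 (interval -0.46 to 0.50, adjusted p = 0.953), and it was -0.11 without array 1 and -0.11 without array 3, so it has no settled direction.

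Heph, the X-linked gene of the copper-containing ferroxidase that works beside ferroportin, had -0.07, -0.30 and 0.49. The mean was 0.04 ± 0.41 (interval -0.40 to 0.48, adjusted p = 0.900). Its 3 features disagreed. The feature annotated to a transcript of its own was below 0 on every array (-0.29, -0.59 and -0.24), with a mean of -0.38 ± 0.19. The 2 features that share the other transcript averaged 0.12 ± 0.60 and 0.37 ± 0.48 and reached 0.80 and 0.91 on array 3. None of the 3 passed when each feature was tested by itself (limma adjusted p from 0.202 to 0.790).

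Hamp, the gene of the iron hormone hepcidin, had the highest mean of the 10. Its ratios were 1.10, 0.50 and 0.37 on arrays 1, 2 and 3, from 1 feature. All were above 0, with array 1 the highest. The mean was 0.66 ± 0.39 (interval 0.22 to 1.09), 1.58-fold, and did not pass (adjusted p = 0.102). Of all genes, 2.61% had a higher mean. Its paralogue Hamp2, measured by a feature of its own, had 0.79, 0.33 and 1.05 (mean 0.72 ± 0.37, adjusted p = 0.0875). The arrays came in a different order in both genes, with array 1 highest for Hamp and array 3 for Hamp2. Sequences this alike may share signal between features, and the probe sequences are not used here. Hepatocytes are the main source of hepcidin. Of 8 hepatocyte markers 6 had a mean below 0, the list medians were -0.46, -0.26 and -0.26 on the arrays, and Alb (albumin) had -1.61, -2.27 and -0.80 (adjusted p = 0.0687).

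RefSeq promoter windows of assembly GRCm38.p6 were matched for 5 of the 10 genes (Cybrd1, Hamp, Tfrc, Fth1 and Ftl1). Windows on a single chromosome were left out of this match, so a window there may have been missed. On the chromosomes that were kept, the other genes had no window in the set used. The 250 bases before the start are shown for Cybrd1, which had the lowest mean, for Hamp, which had the highest, and for its paralogue Hamp2. Capitals mark GGCGCC, the core of the BMP-responsive element known from hepcidin promoters, and in Hamp2 the 6 bases aligned with it. The Cybrd1 window is chr2:71117804-71118053 on the plus strand, the Hamp window chr7:30944030-30944279 on the minus strand and the Hamp2 window chr7:30924182-30924431 on the minus strand.
Cybrd1: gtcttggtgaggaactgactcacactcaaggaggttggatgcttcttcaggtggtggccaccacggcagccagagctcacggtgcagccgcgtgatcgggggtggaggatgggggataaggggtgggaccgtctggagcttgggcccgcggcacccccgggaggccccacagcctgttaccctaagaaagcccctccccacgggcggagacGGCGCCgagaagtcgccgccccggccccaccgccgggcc
Hamp: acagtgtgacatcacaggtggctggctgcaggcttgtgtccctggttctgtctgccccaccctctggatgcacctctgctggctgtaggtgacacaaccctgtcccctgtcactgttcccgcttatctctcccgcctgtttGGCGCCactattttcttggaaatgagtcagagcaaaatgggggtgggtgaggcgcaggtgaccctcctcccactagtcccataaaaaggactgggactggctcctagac
Hamp2: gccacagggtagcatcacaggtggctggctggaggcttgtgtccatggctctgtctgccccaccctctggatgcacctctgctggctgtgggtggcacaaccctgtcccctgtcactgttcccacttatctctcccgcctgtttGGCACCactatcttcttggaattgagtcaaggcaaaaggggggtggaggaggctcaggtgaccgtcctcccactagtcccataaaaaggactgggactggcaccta

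The Hamp and Hamp2 windows were identical at 227 of 253 aligned positions (89.7%). GGCGCC began 109 bases before the start of Hamp, and Hamp2 carried G4A there, counted from 1 at the motif's 5′ end with the Hamp base first. The mean ratios of both genes were 0.66 and 0.72. The Cybrd1 window held GGCGCC 39 bases before its start, and 1 of the 2 Tfrc windows held it 89 bases before. Of 32851 windows of the same length, 9.6% held this motif, which reads the same on both strands. The hypoxia response core ACGTG (16.6% of windows), the antioxidant response core TGACNNNGC (10.2%), the Sox core AACAAT (9.4%) and TATAAA (12.4%) were searched on both strands too. None of these 4 was found in the windows of Cybrd1, Hamp, Hamp2 or Ftl1, which says only that these letters are not there. The hypoxia core was searched only as ACGTG, so other forms of it may be present in these windows. One Tfrc window held ACGTG and 1 Fth1 window held TATAAA, and no searched motif overlapped another.

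Tfrc, the receptor for transferrin-bound iron, had 0.55, -0.13 and 0.28 on arrays 1, 2 and 3. Arrays 1 and 3 lay above 0 and array 2 below. The mean was 0.23 ± 0.34 (interval -0.17 to 0.64, adjusted p = 0.392). Tfrc has 12 features, all annotated to the same transcript. How many of them repeat 1 probe is not known here, so their agreement may be that of repeated spots. On array 1 they ran from 0.39 to 0.80 (SD 0.11) and on array 2 from -0.30 to -0.03 (SD 0.07). On array 3 the median was 0.38, and features at -0.59 and 0.06 stood apart. In 11 of the 12 features array 1 was highest and array 2 lowest, so the arrays differed by more than the features did on arrays 1 and 2.

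**Figure D2:**
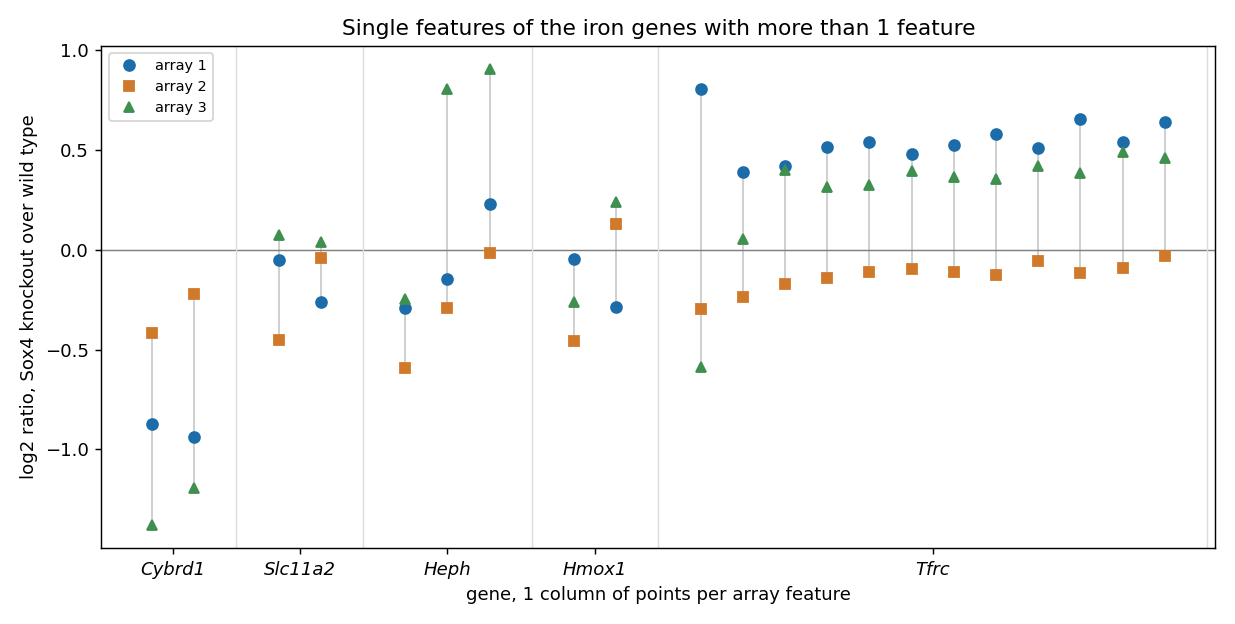
Log2 ratio of knockout over wild type (vertical axis) for each single feature of Cybrd1, Slc11a2, Heph, Hmox1 and Tfrc (1 column of points per feature, 1 symbol per array, a grey line over their range). Both Cybrd1 features lie below 0 on all arrays, Heph and Hmox1 features differ in sign, and 11 of the 12 Tfrc features order the arrays alike.

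Ferritin stores iron in a shell of heavy and light chains. Ftl1, the light chain, had 0.37, 0.28 and 0.37 on arrays 1, 2 and 3, the tightest set among the 10. All lay above 0, with a mean of 0.34 ± 0.05 (interval 0.07 to 0.62), 1.27-fold, which did not pass (adjusted p = 0.135). Of all genes, 12.8% had a higher mean. Fth1, the heavy chain with ferroxidase activity, had -0.05, -0.05 and 0.17, a mean of 0.02 ± 0.13 (interval -0.27 to 0.32, adjusted p = 0.912). Each chain rests on 1 feature. Both genes have processed copies in the mouse genome, and signal shared with them could not be separated here.

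Fech, which inserts iron into protoporphyrin as the last step of haem synthesis, had -0.40, -0.63 and 0.18 from 1 feature. Arrays 1 and 2 lay below 0 and array 3 above. The mean was -0.28 ± 0.42 (interval -0.73 to 0.17, adjusted p = 0.359). Hmox1, the inducible enzyme that opens the haem ring and frees its iron, had -0.17, -0.16 and -0.01. The mean was -0.11 ± 0.09 (interval -0.40 to 0.17, adjusted p = 0.544), and its 2 features averaged -0.25 ± 0.20 and 0.03 ± 0.28, on either side of 0. Among the haemoglobin genes of red blood cells, Hbb-bt fell, with -1.94, -1.66 and -1.17 (adjusted p = 0.0494), and Hbb-bs fell by 1.23 on the log2 scale (SD 0.19, adjusted p = 0.0461). Both calls were lost with any 1 array left out (adjusted p from 0.0577 to 0.234). With all arrays kept, Hbb-bt held its call under 4 of 6 alternatives (limma adjusted p up to 0.0542) and Hbb-bs under all 6. Of the 9 red cell markers measured 2 fell, where 0.222% of all genes passed lower. A mean below 0 was found for 8, and for 53.6% of all genes, and the list medians were -1.36, -1.02 and -0.79. The markers other than haemoglobins, chosen after their values were seen, averaged -0.09 for Slc4a1, -0.04 for Klf1, -0.31 for Gata1 and 0.73 for Epb42. The part of blood in the ratios of Fech and Hmox1 was not tested.

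Beyond these members, 107 gene entries in 7 lists of iron and haem handling were read from the same fit, and 101 were measured. Haptoglobin (Hp), a plasma protein that binds free haemoglobin, was the 1 gene to pass, where 0.222% of all genes passed lower. Before adjustment 30 of the 101 (29.7%) had a p under 0.05, near the 26.3% of all genes. A mean below 0 was found for 70 of the 101 (69.3%) and for 53.6% of all genes. Their median was -0.12, beside -0.03 over all genes.

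In the list of haem synthesis, transport and breakdown 1 of 20 genes fell and none rose, and the median was -0.14. Hp had -1.64, -2.09 and -1.36, a mean of -1.70 ± 0.37 (3.24-fold lower, adjusted p = 0.0461). The call was lost under quantile normalization (adjusted p = 0.0505) and with any 1 array left out (adjusted p from 0.0577 to 0.219). Hp is made by hepatocytes and adipocytes. Of 6 adipocyte markers 4 fell, where 0.222% of all genes passed lower, and the list medians lay between -2.22 and -2.01 on the arrays. With 1 array left out, Adipoq and Cfd held the call in 2 of 3 fits, and Plin1 and Retn in 1 of 3. The part of adipocytes and hepatocytes in the Hp result was not tested. Alas2, the X-linked erythroid enzyme that starts haem synthesis, had -1.51, -1.27 and -0.65 (adjusted p = 0.0648), beside the haemoglobin values above. The haem exporter gene Flvcr1 had -0.49, -1.70 and -0.77 (adjusted p = 0.0945), and the porphyrin exporter gene Abcg2 had -0.47, -0.89 and -0.33 (adjusted p = 0.101). In this list 9 of 20 genes were below 0 on all arrays, against 27.3% of all genes.

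In the list of hepcidin control none of 15 genes passed limma's test, and 9 (60.0%) had an unadjusted p under 0.05, 5 above 0 and 4 below, against 26.3% of all genes. The median was -0.18. Bmp6, the ligand through which iron stores raise hepcidin, had 0.33, 0.92 and 0.79 (adjusted p = 0.0855). Hjv, the BMP co-receptor hemojuvelin, had 0.82, 0.49 and 0.44 (adjusted p = 0.0843), and Erfe, the erythroid hormone that lowers hepcidin, 0.71, 0.23 and 0.63 (adjusted p = 0.105). These genes and Hamp2 were named for their small p. In the whole list 5 of the 15 genes lay above 0 on every array, against 23.2% of all genes. On the other side, 8 of the 15 genes were below 0 on all arrays, against 27.3% of all genes. The 4 of them with an unadjusted p under 0.05 were Bmp2 (mean -0.71), Tmprss6 (-0.55), Hfe (-0.30) and Smad7 (-0.28). These 4 were chosen after their values were seen.

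Among iron carriers, reductases and chaperones none of 24 genes passed limma's test, 6 had an unadjusted p under 0.05, and the median was -0.06. Ncoa4, the receptor that delivers ferritin to the lysosome, had -0.77, -0.59 and -0.99 (mean -0.78 ± 0.20, adjusted p = 0.0649). Mcoln1, a lysosomal channel that passes ferrous iron, had -0.71, -0.48 and -0.59 (adjusted p = 0.0747). The hephaestin relative Hephl1 had -0.46, -1.16 and -1.95 (adjusted p = 0.0897), and Cubn, a receptor for transferrin and other ligands, -0.53, -2.17 and -1.58 (adjusted p = 0.0822). Ltf (lactoferrin, an iron-binding protein of secretions and neutrophils), chosen after its values were seen, had 3.52, 2.50 and 0.34 (mean 2.12 ± 1.62, adjusted p = 0.106), the highest mean in these lists with a wide spread.

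**Figure D3:**
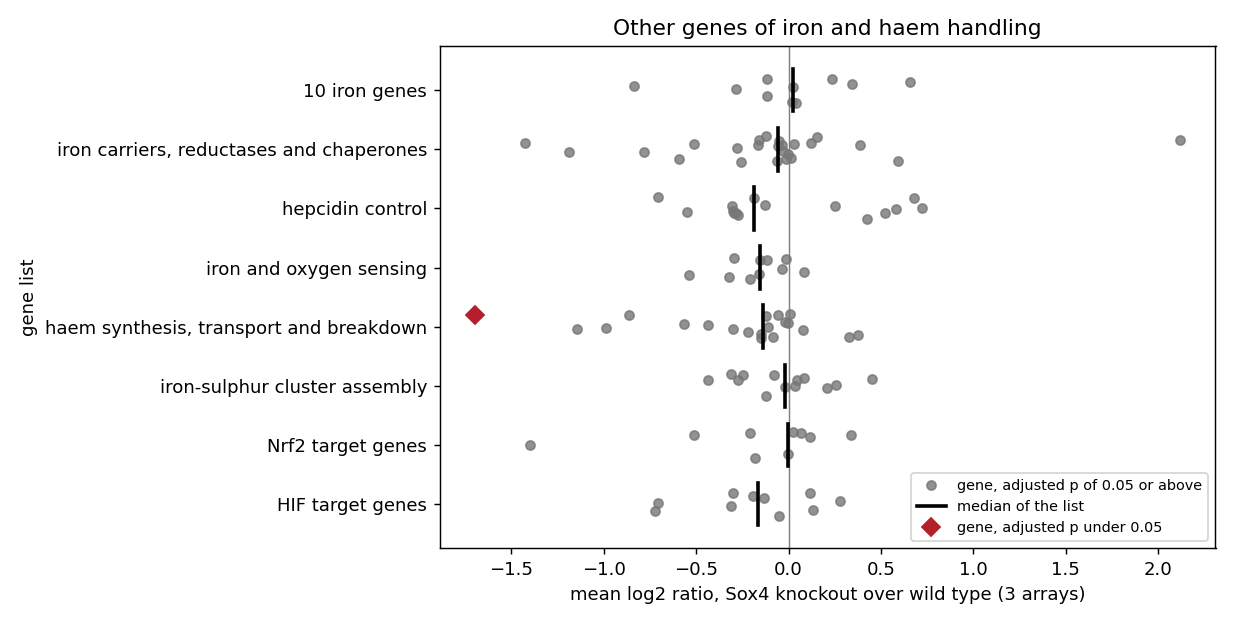
Mean log2 ratio of knockout over wild type on 3 arrays (horizontal axis) for each gene of the 10 members and of 7 lists of iron and haem handling (vertical axis), with the list median as a black bar. Hp is the 1 gene past the threshold (red diamond), and the point at 2.12 is Ltf.

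Genes that sense iron and oxygen had a median of -0.16 over 10, with none past limma's test and 2 at an unadjusted p under 0.05. Epas1 (HIF2A), the factor that drives Cybrd1, Slc11a2 and Slc40a1 when oxygen or iron is low, had -0.40, -0.35 and -0.14 (adjusted p = 0.188). Vhl, which marks it for breakdown, had -0.46, -0.41 and -0.10 (adjusted p = 0.187), Hif1a -0.22, -0.20 and -0.20 (adjusted p = 0.280) and the oxygen sensor Egln3 -1.20, 0.50 and -0.92 (adjusted p = 0.347). HIF target genes had a median of -0.16 over 10, also with none past limma's test and 2 at an unadjusted p under 0.05, Bnip3 (-0.95, -0.62 and -0.55, adjusted p = 0.0715) and Ankrd37 (-1.24, -0.21 and -0.71, adjusted p = 0.118).

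The Nrf2 target genes, a group induced by oxidative stress to which Hmox1 also belongs, had a median of -0.00 over 9, none past limma's test and 2 at an unadjusted p under 0.05. Gclc, which makes glutathione precursors, had -0.51, -0.61 and -0.42 (adjusted p = 0.0838), and Me1 (malic enzyme) had -2.72, 0.17 and -1.65 (adjusted p = 0.170). Iron-sulphur cluster assembly genes had a median of -0.02 over 13, none past limma's test and 2 at an unadjusted p under 0.05. Lyrm4, a partner of the cysteine desulphurase, had 0.45, 0.59 and 0.31 (adjusted p = 0.102), and the co-chaperone Hscb -0.58, -0.46 and -0.26 (adjusted p = 0.112).

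Most of these genes act in enterocytes. Of 12 enterocyte markers none passed limma's test, 3 had an unadjusted p under 0.05, 5 had a mean above 0 and 7 below, and the list medians were 0.03, 0.09 and -0.21 on arrays 1, 2 and 3. The brush border genes Vil1 and Anpep had means of 0.48 ± 0.14 (adjusted p = 0.0931) and 0.83 ± 0.15 (adjusted p = 0.0625), while the brush border gene Lct (lactase), chosen after its values were seen, had -0.47 ± 0.45 (adjusted p = 0.193). Macrophages recycle iron from red cells. Of 12 macrophage markers Vsig4 rose (1.07, 0.96 and 1.03, limma adjusted p = 0.0487), where 0.106% of all genes passed higher. The call was lost with any 1 array left out (adjusted p from 0.0731 to 0.240). With all arrays kept, it held under 5 of 7 alternatives. Of these markers 8 had a mean above 0 and 4 below, with list medians of -0.09, 0.49 and 0.07. Spic, a transcription factor of iron-recycling macrophages, had -0.84, -0.10 and -0.76 (adjusted p = 0.133), and the haemoglobin-haptoglobin receptor gene Cd163, chosen after its values were seen, had -0.18, 0.29 and -0.04. Acinar markers of the pancreas had list medians of -0.73, -0.49 and -0.59, and smooth muscle markers -0.54, 0.35 and -0.47. The part of these cells in the iron genes was not tested. Ratios cannot show whether a marker was present, so the labelled tissue could not be checked by level.

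**Figure D4:**
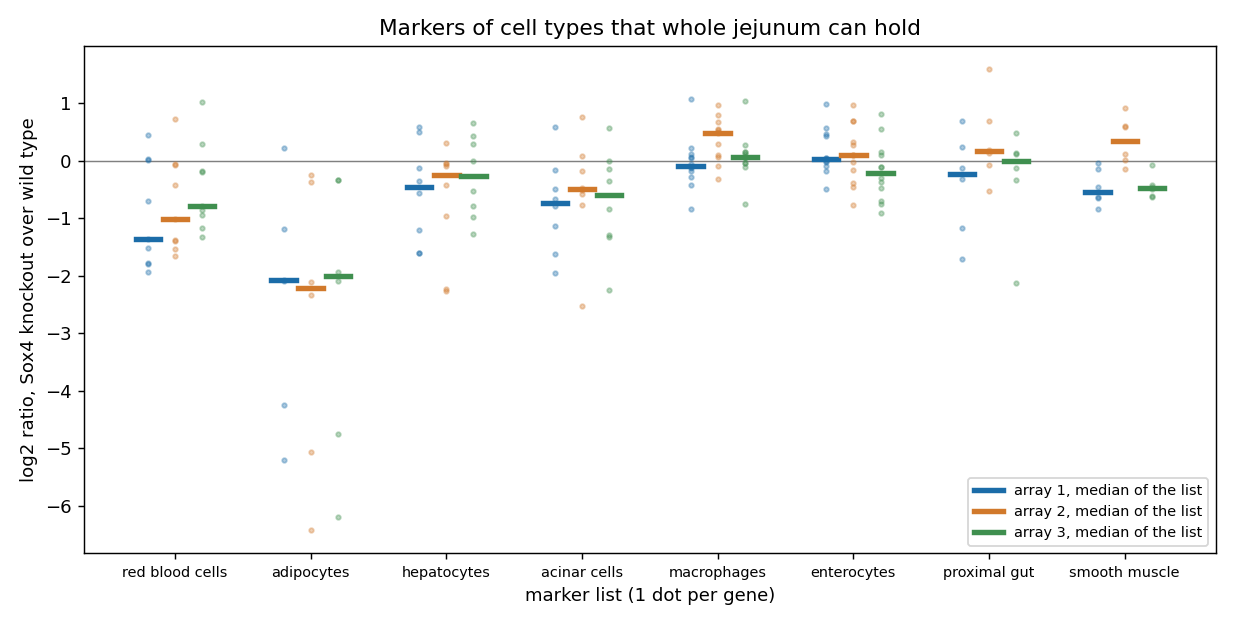
Log2 ratio of knockout over wild type (vertical axis) for markers of cell types that whole jejunum can hold (horizontal axis), with 1 dot per gene and a bar at the list median for each array. Adipocyte, red blood cell, hepatocyte and acinar cell medians lie below 0 on every array, and smooth muscle is above 0 on array 2 only.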

How the data were processed

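The deposited table holds log2 ratios of the 2 channels, 62976 features on each of 3 arrays, without gaps. How the authors corrected background, normalized or filtered is not given in the sources used here, nor is the log base or which channel is the numerator. Array medians of 0.003 to 0.011 show that the ratios had been centred. Base 2 was assumed, and under the natural logarithm each fold would be larger. Knockout RNA was in Cy5, the usual numerator, per the labels, so each ratio was taken to be knockout over wild type, and all signs would turn otherwise. Without a dye swap, a dye effect of a gene cannot be told apart from genotype. Without intensities, dim features stayed in, and precision is limited by the number of arrays.

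Of 31465 features with 1 symbol in the platform annotation, a RefSeq gene table (GRCm38.p6) named 29036 by accession and 2424 by current symbol or synonym, and 5 kept an old symbol. None had several symbols, and 31511 features are unnamed here. Features of a gene were averaged on each array. Each mean was set against 0 by limma (version 3.58.1, R 4.3.3, lmFit and eBayes, 2 residual and 3.51 prior degrees of freedom), two-sided, with Benjamini-Hochberg adjustment over all 20738 genes. Scripts were tested on simulated data with the fitted spread. Of 50 genes changed by 0.5 on the log2 scale 3 were called, and of 50 changed by 1, 47 were called. There were 17 false calls. A gene without a call may thus still differ by 0.5 or by more. In the data Cubn (mean -1.43) and Ltf (mean 2.12) had no call, so the simulated rates do not carry over to every gene. Python 3.11.15, pandas 2.3.3 and matplotlib 3.10.9 made tables and figures.

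The members and the 16 other lists were chosen with earlier results of these data known. Named are all members, in each pathway list genes past the threshold and up to 4 with the smallest p, and in each marker list up to 3. Others are marked. Alternatives were array centring, equal spread, quantile normalization, feature medians, single features, robust eBayes, annotation symbols as given, leaving out genes with disagreeing features, and leaving out each array.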

Additional observations from a re-analysis of the deposited data

How the results depend on the processing

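Each of the 10 iron genes stayed without a call under every alternative run, and array centring, equal spread, quantile normalization, feature medians, robust eBayes and annotation symbols as given turned no member's direction. Leaving out 1 array moved the mean of Slc40a1 between -0.11 and 0.28, of Heph between -0.18 and 0.21 and of Fth1 between -0.05 and 0.06, so these have no direction. Cybrd1 kept its sign, between -1.10 and -0.61, as did Hamp, between 0.44 and 0.80, and Ftl1, between 0.33 and 0.37. Tfrc (0.08 to 0.42), Fech (-0.51 to -0.11), Slc11a2 (-0.20 to -0.05) and Hmox1 (-0.17 to -0.09) also kept their signs, with sizes that depended on the array left out. Heph, Hmox1 and Tfrc could not be tested when genes with disagreeing features were left out.

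In the main fit 68 of all genes passed the threshold. Dropping array 1 gave 10 genes, of which 9 were among these 68. Dropping array 2 gave 66 genes, but only 25 of them were among the 68. Dropping array 3 gave 4, and all 4 were among the 68. With every array kept, the gene count lay between 48 (quantile normalization) and 93 (equal spread) under the alternatives. Of 62976 features tested singly, 325 passed. In the 7 lists beside the members the count was 1 (Hp), 0 under quantile normalization, where Hp had -1.71, and 0 without any 1 array, where Hp ran from -1.86 to -1.50. The causes were not tested, beyond the smaller number of arrays. No paired analysis was possible because all 3 arrays form 1 group. Signal over background is unknown, which limits all single-feature genes.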
